A study of Mus musculus with 2 samples.

Results

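Fc receptors bind the constant part of antibodies, and many of them signal through small adaptor chains that carry an immunoreceptor tyrosine-based activation motif (ITAM). The set described here holds 10 mouse genes of this system: the IgG receptors Fcgr1, Fcgr2b, Fcgr3 and Fcgr4, the IgE receptor chains Fcer1a and Ms4a2, the adaptors Fcer1g and Tyrobp, the kinase Syk, and the neonatal receptor Fcgrt. Members were taken by gene name from the array's own annotation. The array gave 9 of the 10 under these names, and the probe of Syk, which the array calls Sykb, was found through its accession NM_011518. Of the 10 genes, 9 were measured well enough to be tested, among 19869 genes tested in all.

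The samples were GFP-sorted lineage-negative (Lin-) cells of C57BL/6 mouse fetal liver at embryonic stage E14.5, which the labels call erythroid progenitors. One group was transduced with ESlncRNA, an erythroid long noncoding RNA also known as lincRNA-EPS, and the other with the vector. Each of 2 arrays carried 1 RNA of each group, ESlncRNA in Cy5 and vector in Cy3, so every probe gave 2 ratios. The dyes were never swapped, so any dye bias of a probe enters its ratio on each array alike. Transduction and the GFP sort were common to both groups. The labels leave unsaid whether the replicates stem from different cultures or animals, so a p-value here reflects array-to-array spread that may be purely technical.

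In an activating Fc receptor the ligand-binding chain seldom signals alone. It pairs with the common gamma chain encoded by Fcer1g, Src-family kinases phosphorylate the tyrosines of the chain's ITAM, and Syk docks on the phosphorylated motif and passes the signal on. Tyrobp encodes DAP12, an ITAM adaptor used by receptors of myeloid and natural killer cells, while Fcgr2b carries an inhibitory motif of its own and restrains the activating receptors. These genes are best known from macrophages, granulocytes, mast cells, natural killer cells and B cells, and the neonatal receptor, in contrast, carries IgG across cells and protects it from breakdown.

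The 60-base probes decide which transcript each value stands for, and 2 of them are shown because the ratios of the adaptor and of the IgG receptors rest on them. The Tyrobp probe lies on chr7:31200651-31202378 (mm9, forward strand), a span of 1728 bases, so that it joins exons across an intron. It covers part of the ITAM itself, and the capitals mark the 12 bases from the tyrosine codon to the leucine codon at the first of its tyrosine sites, bases 39 to 50 of the probe. The Fcgr3 probe lies on chr1:172984129-172984188 (mm9, reverse strand) in the coding part of an extracellular immunoglobulin domain, a region that mouse Fcgr2b shares almost unchanged. For Fcgr2b the first 30 bases of its probe on chr1:172890988-172891047 (reverse strand) are given.
Tyrobp: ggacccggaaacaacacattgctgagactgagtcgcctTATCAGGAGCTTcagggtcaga
Fcgr3: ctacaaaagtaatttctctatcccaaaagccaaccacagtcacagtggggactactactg
Fcgr2b: acttctgtgagtcctgaaaccaacagacac
The probes themselves share little: no pair of members' probes, aligned without gaps, had a common run longer than 8 bases. How much Fcgr2b transcript binds the Fcgr3 probe was not tested, so the separate value of Fcgr3 is uncertain.

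The promoters of 9 members were in the RefSeq table of assembly GRCm38.p6, as windows from 250 bases before to 50 after a start site. Fcgr3 and Syk had 2 windows each, which makes 11. Each was searched on both strands for GAGGAA, the core letters of the binding sequence of the myeloid factor PU.1, and for AGATAA, the letters bound by GATA factors, both chosen with the members' values known. GAGGAA stood in 6 of the 11 windows and in 28.3% of all 32851 windows of the table, and AGATAA in 2 of the 11 and in 11.2% of all. The 2 windows of Fcgr3 overlap and hold the same GAGGAA match, which is therefore counted in both. Such a match is a description of letters, not of binding. The 4 stretches below are shown because the match lies close to the start site of a ligand-binding or IgE chain, with the match in capitals (TTCCTC and TTATCT are the same letters read on the other strand). They are Fcgr4 at chr1:171018877-171018936 (forward), Fcgr3 at chr1:171059377-171059436 (reverse), Fcgr1 at chr3:96293992-96294051 (reverse) and Ms4a2 at chr19:11623711-11623770 (reverse).
Fcgr4: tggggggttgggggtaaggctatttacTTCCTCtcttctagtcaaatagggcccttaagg
Fcgr3: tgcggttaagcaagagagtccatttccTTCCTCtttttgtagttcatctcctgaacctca
Fcgr1: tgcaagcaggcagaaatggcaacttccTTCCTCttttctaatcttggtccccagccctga
Ms4a2: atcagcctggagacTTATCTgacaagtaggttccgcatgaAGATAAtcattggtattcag
The match began at -22 in Fcgr4 and at -55 in Fcgr1 relative to the start site, and in Fcgr3 at -6 or -15 depending on which of the annotated starts is taken. Ms4a2 held matches to AGATAA at -37 and -11, both shown, and at -224. Fcer1a had GAGGAA at -216 and AGATAA at -92, and Syk had GAGGAA at -9 in its second window. The windows of Fcgr2b, Fcer1g and Fcgrt held neither run of letters.

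Of the members, 6 (Fcgr2b, Fcgr3, Fcgr4, Fcer1g, Tyrobp and Syk) were well above background in both channels on both arrays. All 6 were lower in the ESlncRNA cells than in the vector cells (limma, adjusted p under 0.05), and each was at least 2-fold lower on both arrays. Of the 17236 genes measured that well, 34.3% were called lower, 29.1% higher, and 7.37% were at least 2-fold lower on both arrays, so a call alone says little and the sizes carry the description. Fcgr1, Ms4a2 and Fcgrt were called lower too, but they passed the filter only through the vector channel, which leaves little room for another direction, and their bounds are all under 2-fold. Among all 19869 genes tested, 36.8% were lower, 26.3% higher and 8.10% at least 2-fold lower on both arrays. The mean log2 ratios of ESlncRNA over vector of the 6 members ran from -3.94 to -1.76, whereas the middle 90% of all genes lay between -1.54 and 0.52 (median -0.029). The unnormalized signals given below are not on one scale between the dyes: the median spot read 67.8 and 76.3 in ESlncRNA (Cy5) and 35.9 and 39.5 in vector (Cy3), while ratios are normalized log2 ratios. In bulk RNA, fewer cells of a type and less RNA per cell cannot be told apart.

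**Figure D1:**
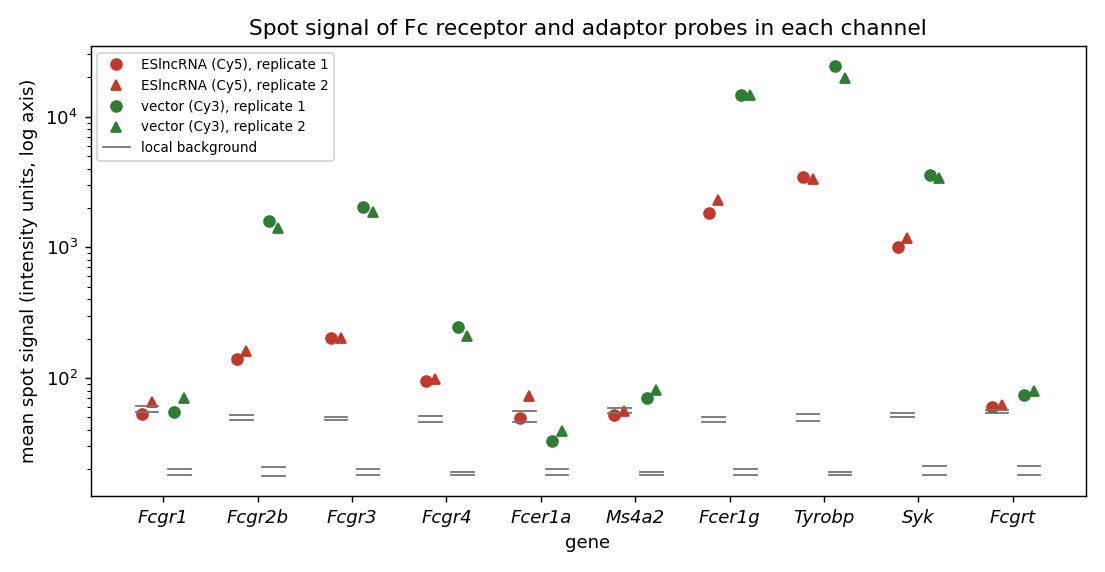
Mean spot signal (intensity units, log axis) of the probe of each of the 10 genes, with ESlncRNA (Cy5) left and vector (Cy3) right, circles for the array of replicate 1, triangles for that of replicate 2, and grey dashes for the local background of each channel. Fcer1g, Tyrobp and Syk stand far above background in both channels. Fcgr2b and Fcgr3 do so in vector but lie closer to background in ESlncRNA, and the ESlncRNA signals of Fcgr1, Ms4a2 and Fcgrt lie near theirs.

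Among the IgG receptors, Fcgr2b and Fcgr3 fell the most. Fcgr2b, the inhibitory receptor that recruits phosphatases (NM_001077189), gave spot signals of 139 and 161 in ESlncRNA cells and 1598 and 1409 in vector cells on the arrays of replicates 1 and 2. Its log2 ratios were -4.00 and -3.88, a mean of -3.94 ± 0.0808 (SD, n = 2 arrays), or 15.3-fold lower (limma adjusted p = 5.99e-08). In ESlncRNA cells the local background was 47.4 and 51.6. The size of the drop moved with the processing: the mean was -4.50 with a background offset of 0 and -3.56 with median centring. Only 0.282% of the genes tested had a lower ratio.

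Fcgr3, the activating low-affinity receptor (NM_010188), gave 203 and 202 in ESlncRNA cells and 2027 and 1853 in vector cells. Its ratios of -3.90 and -3.97 averaged -3.94 ± 0.0504 (SD, n = 2 arrays), 15.3-fold lower (limma adjusted p = 5.47e-08). The activating and the inhibitory receptor thus had ratios that the 2 arrays could not separate: Fcgr3 minus Fcgr2b was 0.095 on one array and -0.091 on the other. The sequence that the transcripts share, described above, touches this comparison.

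The Fcgr2b probe was spotted repeatedly, which shows the precision within an array. On the array of replicate 1, 10 spots gave a mean log2 ratio of -4.00 with an SD of 0.170 between spots and a range of -4.24 to -3.71. On that of replicate 2, 9 spots not marked as outliers gave -3.88 with an SD of 0.145 and a range of -4.09 to -3.67. The means of the arrays thus differed by 0.11. The SDs describe single spots and are not a measure for this difference between means. ESlncRNA signals of single spots lay between 120.0 and 157 (median 141) on the first array and between 138 and 177 (median 165) on the second. Vector signals of the same spots lay between 1344 and 1927 (median 1551) and between 1275 and 1541 (median 1412).

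**Figure D2:**
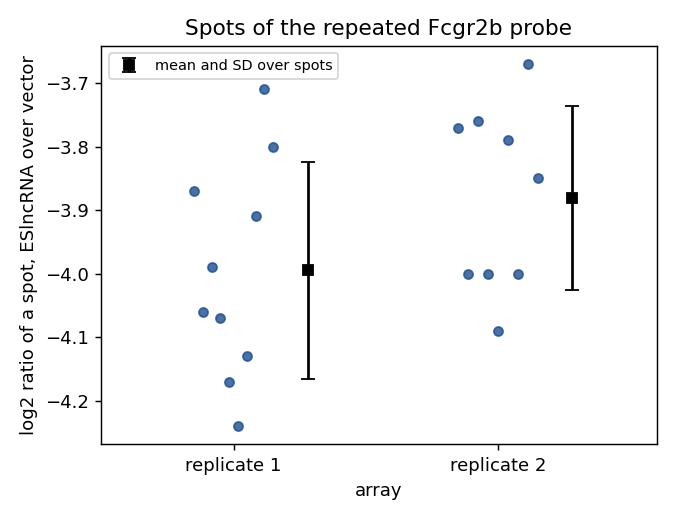
Log2 ratio of ESlncRNA over vector at each unmarked spot of the repeated Fcgr2b probe, by array, with the mean and SD over spots beside them (10 spots for replicate 1, 9 for replicate 2). The spots of the arrays overlap, and all lie between -4.24 and -3.67.

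Fcgr4, the activating receptor of mouse myeloid cells (NM_144559), lay nearer to background. It gave 94.3 and 98.2 in ESlncRNA cells, where the local background was 46.0 and 51.0, and 244 and 210.4 in vector cells, where it was 19.0 and 18.0. The ratios of -1.79 and -1.73 averaged -1.76 ± 0.0425 (SD, n = 2 arrays), 3.39-fold lower (limma adjusted p = 5.82e-07). The size of this drop rests on the background step, since the mean was -2.52 with a background offset of 0 and -2.74 with Agilent's processed signals.

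Fcgr1, the high-affinity IgG receptor (NM_010186), was near the limit of detection. ESlncRNA cells gave 52.7 and 64.9 over a local background of 55.0 and 61, that is, not well above it, while vector cells gave 54.9 and 70.0 over 20.0 and 18.0. The ratios were -0.80 and -0.94 (mean -0.87 ± 0.0979, SD, n = 2 arrays; limma adjusted p = 2.61e-05). With only a bound on the ESlncRNA side, Fcgr1 was at least 1.46-fold lower. Here and below, such a bound compares the vector level with the dim ESlncRNA level or with a floor, whichever is higher. The floor is the lowest normalized ESlncRNA level of any probe well above background, and some dim probes may lie above it. The bound is therefore approximate, and without a dye swap it is open to dye bias.

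The IgE receptor chains were faint in both groups. Fcer1a, the chain that binds IgE (NM_010184), gave 49.5 and 72.2 in ESlncRNA cells over a background of 46.0 and 56.0, and 33.0 and 39.1 in vector cells over 20.0 and 18.0. No channel of either array had it well above background, so it was left out of the test and has no fold. With no filter on background it was called lower, at -0.20 ± 0.0681 (SD, n = 2 arrays; limma adjusted p = 0.0242), so a call can arise there at background level. Ms4a2, the beta chain that amplifies the IgE signal (NM_013516), gave 51.9 and 56.1 in ESlncRNA cells over a background of 54.0 and 59.0, and 70.3 and 80.7 in vector cells over 19.0 and 18.0. The vector signal of Ms4a2 was above its background on both arrays and the ESlncRNA signal on neither. With ratios of -1.06 and -1.22 (mean -1.14 ± 0.115, SD, n = 2 arrays; limma adjusted p = 8.73e-06), Ms4a2 was at least 1.68-fold lower.

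The adaptors gave strong signals. Fcer1g, the gamma chain that activating IgG and IgE receptors share (NM_010185), read 1814 and 2312 in ESlncRNA cells and 14553 and 14568 in vector cells. Ratios of -3.86 and -3.78 gave a mean of -3.82 ± 0.0564 (SD, n = 2 arrays), 14.2-fold lower (limma adjusted p = 5.68e-08). The ESlncRNA signal was still well above background on both arrays.

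Tyrobp (NM_011662), whose probe is printed above, gave 3465 and 3357 in ESlncRNA cells and 24257 and 19746 in vector cells. The ratios were -3.75 and -3.73, a mean of -3.74 ± 0.0126 (SD, n = 2 arrays) or 13.3-fold lower (limma adjusted p = 5.47e-08). The adaptors stood close together: Fcer1g minus Tyrobp was -0.12 on one array and -0.055 on the other (mean -0.086 ± 0.044). From the lowest ratio upward, Fcer1g ranked 75 and Tyrobp 84 of the 19869 genes tested, behind Fcgr2b at 57 and Fcgr3 at 59.

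Syk, the kinase that binds phosphorylated ITAMs, gave 1001 and 1187 in ESlncRNA cells and 3564 and 3366 in vector cells. Its ratios of -2.59 and -2.53 averaged -2.56 ± 0.0478 (SD, n = 2 arrays), 5.89-fold lower (limma adjusted p = 1.43e-07). The drop was smaller than that of the adaptors on both arrays, with Syk minus Fcer1g at 1.27 and 1.26 and Syk minus Tyrobp at 1.15 and 1.20 on the log2 scale. These differences exceed the spread between arrays, but they come from different probes, and how strongly each probe compresses a ratio was not tested.

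A second probe that the array describes as Syk, on chr13:52738924-52738983, was dim. It read 61.7 and 69.4 in ESlncRNA cells and 62.5 and 62.4 in vector cells, with ratios of -0.72 and -0.63 (mean -0.68 ± 0.0646, SD, n = 2 arrays; limma adjusted p = 5.80e-05). Its ESlncRNA signal was not well above background, and the bound was at least 1.49-fold lower. Both probes pointed the same way, and the bright one (chr13:52744088-52744147, forward strand) stands for the gene here.

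The neonatal receptor Fcgrt (NM_010189) was well above background in vector cells only. ESlncRNA cells gave 59.9 and 62.5 over a background of 54.0 and 57.0, and vector cells 73.9 and 78.9 over 21.0 and 18.0. Ratios of -0.93 and -1.05 (mean -0.99 ± 0.0833, SD, n = 2 arrays; limma adjusted p = 1.14e-05) gave a bound of at least 1.69-fold lower. Its light chain B2m, shared with class I histocompatibility molecules, had a log2 ratio of -0.64 ± 0.0239 (1.56-fold lower, limma adjusted p = 5.92e-05). With median centring in place of loess, B2m stood at 0.14 while the median of all genes stood at 0.34.

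**Figure D3:**
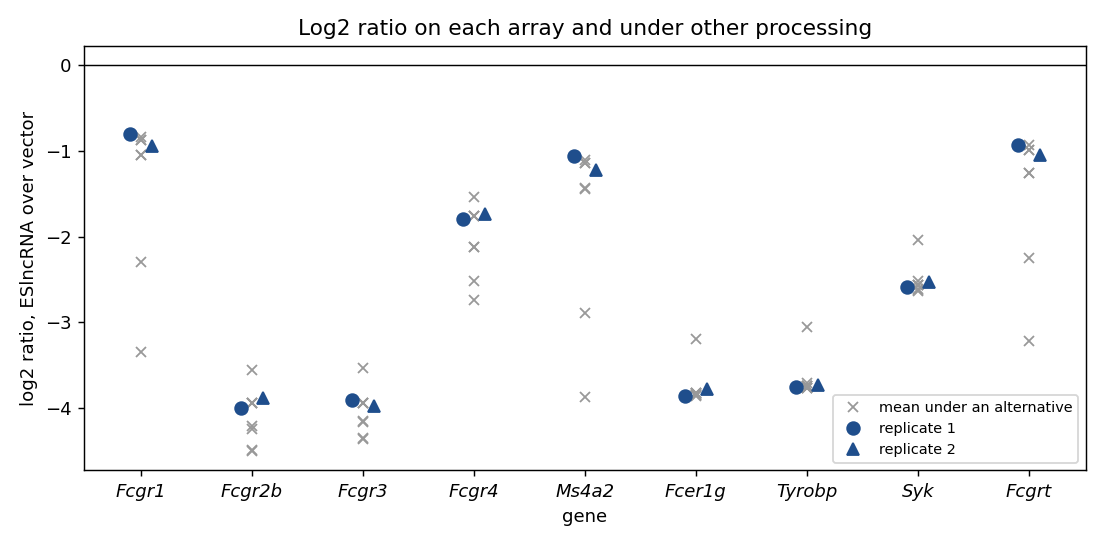
Log2 ratio of ESlncRNA over vector for the 9 tested genes, with the array of replicate 1 as circles, that of replicate 2 as triangles, and the mean under each alternative processing as crosses. Every mark lies below 0; the dim genes Fcgr1, Ms4a2 and Fcgrt spread furthest, down to -3.34, -3.87 and -3.22.

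In order of mean ratio the members ran Fcgr2b, Fcgr3, Fcer1g, Tyrobp, Syk, Fcgr4, Ms4a2, Fcgrt and Fcgr1. Fcgr2b and Fcgr3 changed places between the arrays and the others kept theirs. Fcer1g lay 0.038 and 0.19 above Fcgr3, so these neighbours were not cleanly separated, whereas the step from Tyrobp to Syk exceeded the spread between arrays. The order of Syk and Fcgr4 depended on the background step: Fcgr4 stood at -2.74 and Syk at -2.52 with Agilent's processed signals. The last 3 had ESlncRNA signals at background, and their ratios depended on it as well. With the same processed signals they stood at -3.87 for Ms4a2, -3.22 for Fcgrt and -3.34 for Fcgr1.

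Fcgr2b, Fcgr4, Fcgr3 and Fcer1g lie together on chromosome 1, and the stretch between the probes of Fcgr2b and Fcer1g (chr1:172890988-173159853, mm9) was read for the other genes in it. Besides the 4 members, 6 genes were tested there. Of these, 1 was lower (Pcp4l1, -0.39 ± 0.111, limma adjusted p = 0.00135), 2 were higher (Cfap126, 0.65 ± 0.00175, limma adjusted p = 4.99e-05, and Tomm40l, 0.21 ± 0.0168, limma adjusted p = 0.00892), and Sdhc, Nr1i3 and Apoa2 did not pass, at -0.0087, -0.028 and -0.064. Under median centring, where all genes had a median of 0.34, Sdhc and Apoa2 passed at 0.71 and 0.38. The median of the 6 was -0.02 with loess, beside -0.029 for all genes. The probes of Apoa2 and Fcer1g lie 265.4 and 268.8 kb from that of Fcgr2b, next to each other, with ratios of 0.0043 and -0.13 for Apoa2 against -3.86 and -3.78 for Fcer1g. The drop was thus not shared by all genes of the stretch.

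**Figure D4:**
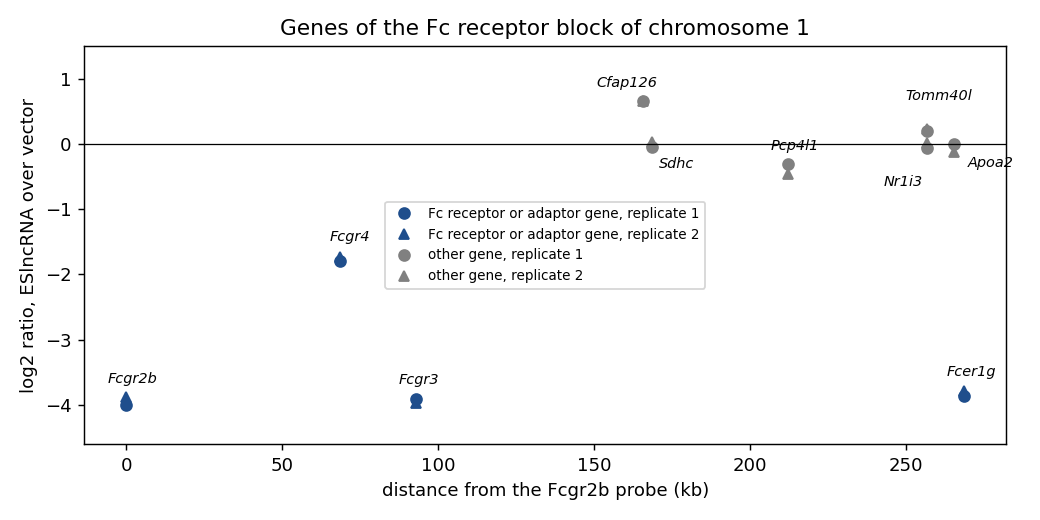
Log2 ratio of ESlncRNA over vector on each array for the 10 tested genes between the probes of Fcgr2b and Fcer1g on chromosome 1, against distance from the Fcgr2b probe (kb). The 4 Fc receptor and adaptor genes (blue) lie at -1.73 or below and the 6 other genes (grey) between -0.46 and 0.66.

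Receptors that pair with the gamma chain or DAP12 were read as a list of 22. On the array were 20, and 16 were tested: 15 were lower, 0 higher and 1 did not pass. Of the 16, 5 passed the filter only through the vector channel. Over the 11 measured in both channels, 10 were lower, 0 higher and 1 did not pass, and 7 were at least 2-fold lower on each array. The list's median of -1.20, beside -0.029 for all genes, moved to -2.46 with Agilent's processed signals, -2.02 with a background offset of 0 and -0.63 with no filter. Trem3, a DAP12 partner of mouse myeloid cells, was 11.6-fold lower (-3.53 ± 0.00139), Clec4e, the Mincle receptor that uses the gamma chain, 8.02-fold lower (-3.00 ± 0.0183), and Trem2, a DAP12 partner of macrophages, 7.35-fold lower (-2.88 ± 0.0762; SD, n = 2 arrays each). Trem3 read only 86.9 and 97.6 in ESlncRNA cells, and its mean moved from -3.22 with median centring to -4.69 with Agilent's processed signals. Lilra5, Klrk1, Ncr1 and Klrb1c were not well above background. The lists were drawn up with earlier results of these data known, and many genes outside them were lower too, so their counts are descriptions.

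Other chains with an ITAM or a related motif moved both ways. Of 10 listed, 6 were tested, with 5 lower and 1 higher, and of the 4 measured in both channels 3 were lower and 1 higher. The median was -2.11, or -0.34 with no filter, which adds 4 genes at background. Cd79b, a signalling chain of the B cell antigen receptor, was 11.6-fold lower (-3.54 ± 0.0969), Hcst, whose product DAP10 carries a lipid kinase motif in place of an ITAM, 6.77-fold lower (-2.76 ± 0.0602), and Clec7a, the receptor Dectin-1, at least 5.99-fold lower (-2.62 ± 0.146; SD, n = 2 arrays each). Cd3e, of the T cell receptor, was 1.24-fold higher (0.32 ± 0.139, limma adjusted p = 0.00477), a call that was lost with a background offset of 0 (adjusted p = 0.0526) and with the authors' deposited log2 values (adjusted p = 0.0716), while Cd247, Cd3d, Cd3g and Cd79a were not well above background.

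Downstream of the ITAM, 35 kinases, scaffolds and effectors were listed and 31 tested. Of these, 27 were lower, 0 higher and 4 did not pass (median -1.05). Of the 27 measured in both channels, 24 were lower and 14 were at least 2-fold lower on both arrays. Plcg2, the phospholipase that follows Syk, was 7.98-fold lower (-3.00 ± 0.0450), and Lat2, a linker that Syk phosphorylates, 5.70-fold lower (-2.51 ± 0.292; SD, n = 2 arrays each). The arrays differed more for Lat2, at -2.30 and -2.72, than for Plcg2, at -3.03 and -2.96.

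Most genes of a list of inhibitory receptors, phosphatases and other inhibitory signalling genes were lower as well. Of 24 tested, 17 were lower, 2 higher and 5 did not pass (median -0.89). Of the 21 measured in both channels, 15 were lower and 9 were at least 2-fold lower on both arrays. Cd300lf, an inhibitory receptor of myeloid cells, was 14.8-fold lower (-3.88 ± 0.0787, with its other probes at -3.22 and -1.73), Sirpa, the receptor of the CD47 signal, 13.8-fold lower (-3.79 ± 0.145) and Pirb, a paired immunoglobulin-like receptor, 12.7-fold lower (-3.67 ± 0.226; SD, n = 2 arrays each), sizes close to that of Fcgr2b. Cd22, an inhibitory receptor of B cells, stood at 0.16 ± 0.00545 (limma adjusted p = 0.0244). Milr1, an inhibitory receptor of mast cells, was called 1.92-fold higher by its brightest probe, but its 3 probes disagreed, at -2.48, 0.58 and 0.94, so no direction can be given for the gene.

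Other immunoglobulin-binding receptors, listed together with the light chain B2m, were mostly below detection, with 4 of 11 tested. Of these, 3 were lower and 1 higher (median -0.44). Pigr, which carries IgA and IgM across epithelia, was 2.99-fold lower (-1.58 ± 0.0354; SD, n = 2 arrays), B2m is given above, and Trim21, an antibody receptor of the cytosol, stood at -0.24 ± 0.0813 (limma adjusted p = 0.00856). Fcrl5 stood at 0.24 ± 0.0534 (limma adjusted p = 0.00600). With median centring Trim21 stood at 0.16 and did not pass, and the list's median was 0.15, or -0.19 relative to all genes.

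**Figure D5:**
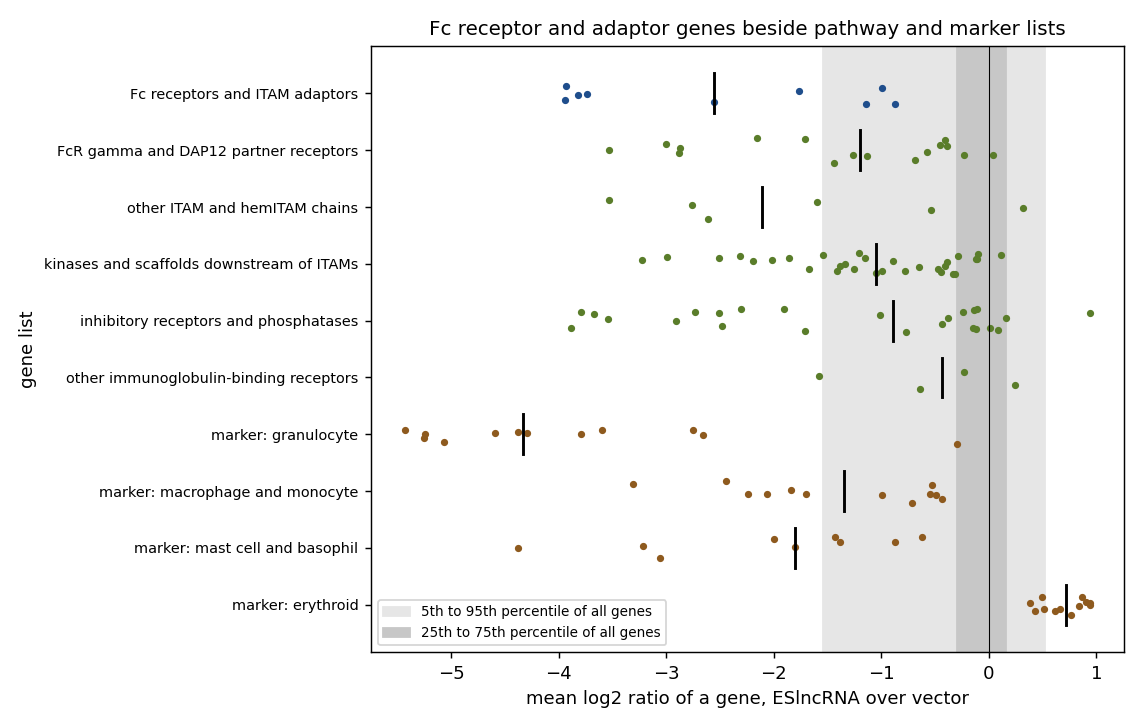
Mean log2 ratio of ESlncRNA over vector of each tested gene (points) in the Fc receptor and adaptor set, the 5 pathway lists and 4 marker lists, with a bar at each list's median and grey bands for the middle 50% and 90% of all genes. The 6 set members measured in both channels lie between -3.94 and -1.76, and the medians of the granulocyte and erythroid markers are -4.34 and 0.71.

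The genes whose pair of ratios lay nearest to that of Fcer1g were sought among 3124 genes within 1 log2 unit of its mean intensity, by Euclidean distance over the 2 arrays. They were Lcp1, an actin-bundling protein of leukocytes (distance 0.0326), Myo1g, a myosin of blood cells (0.10), Ncf4, a subunit of the phagocyte oxidase (0.162), and Ptpn18, a tyrosine phosphatase (0.219). For Tyrobp, among 2676 genes, they were Ptpn18 (0.0910), Ncf4 (0.190), Myo1g (0.223) and Hp, haptoglobin (0.395). The lists share 3 of their 4 names. With only 2 arrays, such nearness says no more than that the ratios had a like size.

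Markers of cells that carry these receptors, and of other cell types, moved in the same RNA. All 12 granulocyte markers tested were lower, with a summed normalized signal of 66368 and 80257 in ESlncRNA cells and 1156380.2 and 1291025 in vector cells (S100a9 at -5.25, Mpo at -4.38). All 12 macrophage and monocyte markers tested were lower, with sums of 2394 and 2430.5 in ESlncRNA cells and 14760.5 and 14631 in vector cells (Csf1r at -3.31, with dimmer probes at -1.73 and -0.23, and Mpeg1 at -2.44, with a dimmer probe at -0.89). Csf1r and Mpeg1, the brightest of this list, also had its lowest ratios, so the sums lean on them. Of the 12 macrophage and monocyte markers, 6 passed the filter only through the vector channel. The list's median was -1.35, and -1.95 over the 6 measured in both channels, while Vsig4, C1qa and Clec4f were not well above background. All 9 mast cell and basophil markers tested were lower, with sums of 3681 and 3802 in ESlncRNA cells and 32964 and 35098 in vector cells (Cpa3 at -4.38, Hdc at -3.22). For 2 of the 9 only the vector channel passed the filter, and the median was -1.80, while Mcpt4, Tpsab1 and Mrgprb2 were not well above background. The groups did not overlap in any of these sums. Nor did they in the sums of the housekeeping genes, at 712684 and 693005 in ESlncRNA cells and 559837 and 563677 in vector cells. Lack of overlap is thus not particular to these markers. Each sum contains the background offset of 50 for every gene in it, which weighs most where signals are dim. The part of other cell types in the drop of the Fc receptor and adaptor genes was not tested.

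Of 8 B cell markers only Cd79b and Vpreb1 were tested, with Pax5 and Ms4a1 among those not well above background. They moved in opposite directions, Cd79b at -3.54 and Vpreb1 at 0.31 (limma adjusted p = 0.00159). Of 7 T and natural killer cell markers, 3 were tested, 2 lower and 1 higher, with Ncr1, Klrb1c and Eomes not well above background. All 8 megakaryocyte markers were lower (median -1.57). Of 7 hepatocyte markers tested 6 were lower (median -0.86, 2 of the 7 dim in ESlncRNA), of 8 endothelial markers 7 (median -1.02, 5 of the 8 dim in ESlncRNA), and of 5 dendritic cell markers 4, with 1 higher (median -0.39). Erythroid markers were present in both groups: of 12 tested, 10 were higher, 0 lower and 2 did not pass (median 0.71), with sums of 334591 and 302066 in ESlncRNA cells and 232144 and 205886 in vector cells. Epor stood at 0.62 and Hba-a1 at 0.43, though with Agilent's processed signals Hba-a1 was at 0.21 and did not pass. All 5 housekeeping genes were called higher (median 0.31), though their median was -0.0013 with the processed signals.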

How the data were processed

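Gene expression was measured on 2 two-colour Agilent arrays, each with ESlncRNA RNA in Cy5 and vector RNA in Cy3, per the labels. The arrays shared 1 slide and 1 scan, so no batch could be tested. The label protocol names the QuickAmp kit, with an input of 100 ng for replicate 2.

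Per the file headers, Feature Extraction 10.1.1.1 quantified the scans. The deposited intensities used here are the mean signal and median local background of each spot and channel. An alternative used the deposited processed intensities, which Feature Extraction had corrected for background and dye. Deposited log10 ratios (Cy5 over Cy3) served only to check direction (r = 0.9851 and 0.9915 with the processed signals). The authors' deposited log2 values, made with limma per the submitters' processing notes (version not given), matched loess ratios without background subtraction (r = 0.999958 and 0.999959), from which their scale and direction were taken. Their medians were -0.02 and -0.01.

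Signals were background-corrected here by normexp (offset 50), followed by loess within each array, in R 4.3.3 with limma 3.58.1. Control spots and spots marked as outliers (284 and 308 of 59305) had weight 0, and no spot was saturated. Repeated spots were averaged. For summed signals and fold bounds, mean intensities were also quantile-normalized between the arrays, and these values still contain the offset. Of 55681 probes, 26789 passed the filter (in either channel, well above background on both arrays), and the brightest stood for its gene. A gene dim in one channel can pass this filter only through the other, so counts over genes measured in both channels are given beside it. Above background were 45.6% and 44.4% of spots in Cy5 and 52.1% and 49.1% in Cy3. Probes were named through RefSeq (GRCm38.p6), 26413 by accession, and 24674 kept the file's name; probe coordinates come from the array files (mm9). Limma fitted an intercept per probe, with 1 residual and 5.27 prior degrees of freedom, with Benjamini-Hochberg adjustment over all probes kept and a threshold of 0.05. The steps were tested on simulated data. The number of arrays limits the precision.

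Members and lists were chosen with earlier results of these data known. Named are all members, of each pathway list the 3 lowest and 2 highest genes that passed with 1 sign on both arrays, the 2 brightest of the marker lists given by name, the 4 genes nearest to Fcer1g and to Tyrobp, and the genes between the probes of Fcgr2b and Fcer1g. Some genes that this rule names are not reported here. Alternatives were median centring, the processed signals, normexp with offset 0, no background subtraction, no filter, both channels above background, the authors' log2 values, the mean over a gene's probes, and leaving out each array.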

Additional observations from a re-analysis of the deposited data

How the results depend on the processing

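Each of the 6 members measured in both channels kept a negative ratio past the threshold in every alternative that could test it. They stayed negative on either array alone. Fcgr1, Ms4a2 and Fcgrt did so wherever they were tested, but they passed the filter only through the vector channel. That leaves little room for another direction, so their calls add little here. Ranges of the log2 ratio over all settings, each array alone included, were narrowest for Fcer1g (-3.86 to -3.19), Tyrobp (-3.76 to -3.05) and Syk (-2.63 to -2.04). They were wider for Fcgr3 (-4.36 to -3.53), Fcgr2b (-4.50 to -3.56) and Fcgr4 (-2.74 to -1.54). The dim members had the widest (Fcgr1 -3.34 to -0.80, Ms4a2 -3.87 to -1.06, Fcgrt -3.22 to -0.93). Each range contains the ratios of the single arrays, so it cannot be narrower than the spread between them. With both channels above background 6 members were tested, all lower, and with no filter Fcer1a was called too, which makes 10. By normalized ratio, 7 members were at least 2-fold lower on both arrays, Ms4a2 among them with a bound under 2-fold. This count moved with the processing. It was 9 with the processed signals, with normexp offset 0 and with the authors' log2 values, where the dim Fcgr1 and Fcgrt were added. Under these settings 2461, 2368 and 1951 of all 19869 genes were at least 2-fold lower on both arrays, against 1610 with the processing used above. The count of members was 8 with no background subtraction and without replicate 1, and 6 with both channels above background. Of all genes, 1948 met the rule with no background subtraction, and 1270 of 17236 with both channels above background. Limma counts from 1 array alone were not run.

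Median centring moved the median of all genes to 0.34 and called 3633 genes lower and 12511 higher (77.5% of calls higher, against 41.7% with loess), and the processed signals 4707 and 6821 (59.2% higher, median 0.11). Relative to all genes, Fcer1g stood at -3.53 with median centring and -3.79 with loess. Median centring gave 3 partner receptors higher in place of 0, 3 downstream genes in place of 0, and 7 inhibitory genes in place of 2. In the list of other immunoglobulin-binding receptors and B2m it gave 1 gene lower in place of 3, with B2m at 0.14 and Trim21 at 0.16. No background subtraction gave 1 downstream gene higher, and the mean of a gene's probes 1 inhibitory gene higher, with Milr1 at -0.32. Of the other ITAM chains, 3 in place of 5 were lower with both channels above background, where fewer genes are tested, and 0 in place of 1 higher with normexp offset 0 and with the authors' deposited log2 values. The cause of the other changes was not tested. Signal near background limits what can be said of Fcgr1, Fcgrt and both IgE chains.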
